A study of Mus musculus with 10 samples.

Results

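The SR proteins and the Tra2 proteins were followed through their 10 genes, Srsf1, Srsf2, Srsf3, Srsf4, Srsf5, Srsf6, Srsf7, Srsf10, Tra2a and Tra2b. They were chosen by gene symbol and by no measured value, though with earlier results of these data known, and make up 10 of the 38087 genes counted. All 10 were among the 10173 genes tested, which had a mean of at least 1 RPKM of exon reads. RPKM is the number of reads per kilobase of exon, or of intron, scaled to the total of reads of that kind.

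SR proteins bind pre-mRNA through RNA recognition motifs and recruit the splicing machinery through domains rich in arginine and serine, whose phosphorylation by kinases of the CLK and SRPK families sets where and how they act. Tra2 proteins are related arginine- and serine-rich regulators of alternative splicing. Many of these genes carry so-called poison exons or introns, whose inclusion brings an early stop codon and sends the transcript to nonsense-mediated decay, and several of the proteins act on such exons in their own transcripts. CLK kinases are known to be sensitive to temperature within the range of mammalian body temperature.

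The cells were wild-type NIH3T3, an immortal mouse fibroblast line. All were seeded at 37 °C for 4 h. Some then spent 16 h at 38 °C and was moved to 33 °C (the downshift), and the others spent 16 h at 33 °C and was moved to 38 °C (the upshift). Total RNA depleted of ribosomal RNA was sequenced 0, 1, 3, 6 and 9 h after each move, with 1 sample per time and 10 samples in all. The study asks how temperature acts on splicing efficiency, above all for Cirbp, a gene known to be induced by mild cold.

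Each sample has 2 columns of values that were used, from numbered series 5 and 11 in the downshift and 2 and 13 in the upshift, and what the numbers stand for is not stated. A series 10, present only at 1 and 3 h of the downshift, was left out of the levels and the main test. The columns held 22403625 to 48004854 exon reads and 15313374 to 25233405 intron reads. Every level below is the mean of these 2 columns, counted as 1 sample. The columns of 1 sample could differ widely: at 0 h of the upshift Srsf2 was at 197 RPKM in series 2 and 135 RPKM in series 13. Calls are therefore given for each pair of series (2 with 5, 11 with 13) where they differ. With 1 sample per time, p-values measure the scatter of the samples around a trend over time, which may be technical, and nothing states that the columns came from separate cultures. All 8 fibroblast markers examined were at 16.9 RPKM or more in every sample, with sums of 2489 to 3694 RPKM. The 16 markers of other cell types summed to at most 4.66 RPKM per type, the highest being Acta1 of muscle, and the 3 neuronal markers to at most 0.002 RPKM. In a bulk sample, fewer cells with a transcript and less of it per cell cannot be told apart.

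The poison exons are shown because the deposited values are totals per gene, which do not tell transcripts with such an exon from protein-coding ones. In GENCODE M21 (GRCm38), 9 of the 10 genes have a transcript annotated as a target of nonsense-mediated decay, Srsf10 being the exception, against 30.4% of 9477 tested protein-coding genes. In 5 of them an exon inside such a transcript belongs to no protein-coding transcript. For 4 of these genes the exon is given from its first base to its stop codon, which is in capitals.
Tra2a, exon 2 of 9, chr6:49252803-49253108, minus strand: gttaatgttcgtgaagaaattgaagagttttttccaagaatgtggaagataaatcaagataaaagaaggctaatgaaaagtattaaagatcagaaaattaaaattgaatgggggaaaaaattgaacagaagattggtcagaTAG
Tra2b, exon 2 of 10, chr16:22258986-22259261, minus strand: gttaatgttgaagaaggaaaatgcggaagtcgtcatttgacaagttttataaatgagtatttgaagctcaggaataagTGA
Srsf7, exon 4 of 9, chr17:80204622-80205081, minus strand: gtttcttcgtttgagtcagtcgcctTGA
Srsf3, exon 4 of 7, chr17:29039454-29039909, plus strand: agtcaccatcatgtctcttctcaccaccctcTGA
The exons of Tra2a and Tra2b start with the same 9 bases. The whole exons are 306 (Tra2a), 276 (Tra2b), 460 (Srsf7) and 456 (Srsf3) bases long, so most of each lies past its stop. Of the bases that are exon in any annotated transcript, 74.0% in Tra2a, 66.9% in Srsf3, 61.7% in Tra2b and 58.5% in Srsf5 lie in no protein-coding transcript, against 2.7% in Srsf1. The sources used here do not name the annotation behind the deposited values, so reads in these stretches may stand under exons or under introns.

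Across the 10 genes the response was split. On exon reads, 3 differed between the shifts upward (Srsf2, Srsf5 and Srsf6, higher after the move to 33 °C than after the move to 38 °C) and 2 downward (Srsf7 and Tra2a), while 5 did not pass the test. The measure is the fitted change from 0 to 9 h of the downshift minus that of the upshift, on the log2 scale, tested with edgeR's quasi-likelihood test and called at an adjusted p of 0.05. Of all genes tested, 25.2% were called upward and 21.7% downward, so the counts of 3 and 2 in 10 are near those of any genes. The median difference was 0.27 over the 10 genes and 0.04 over all genes.

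**Figure D1:**
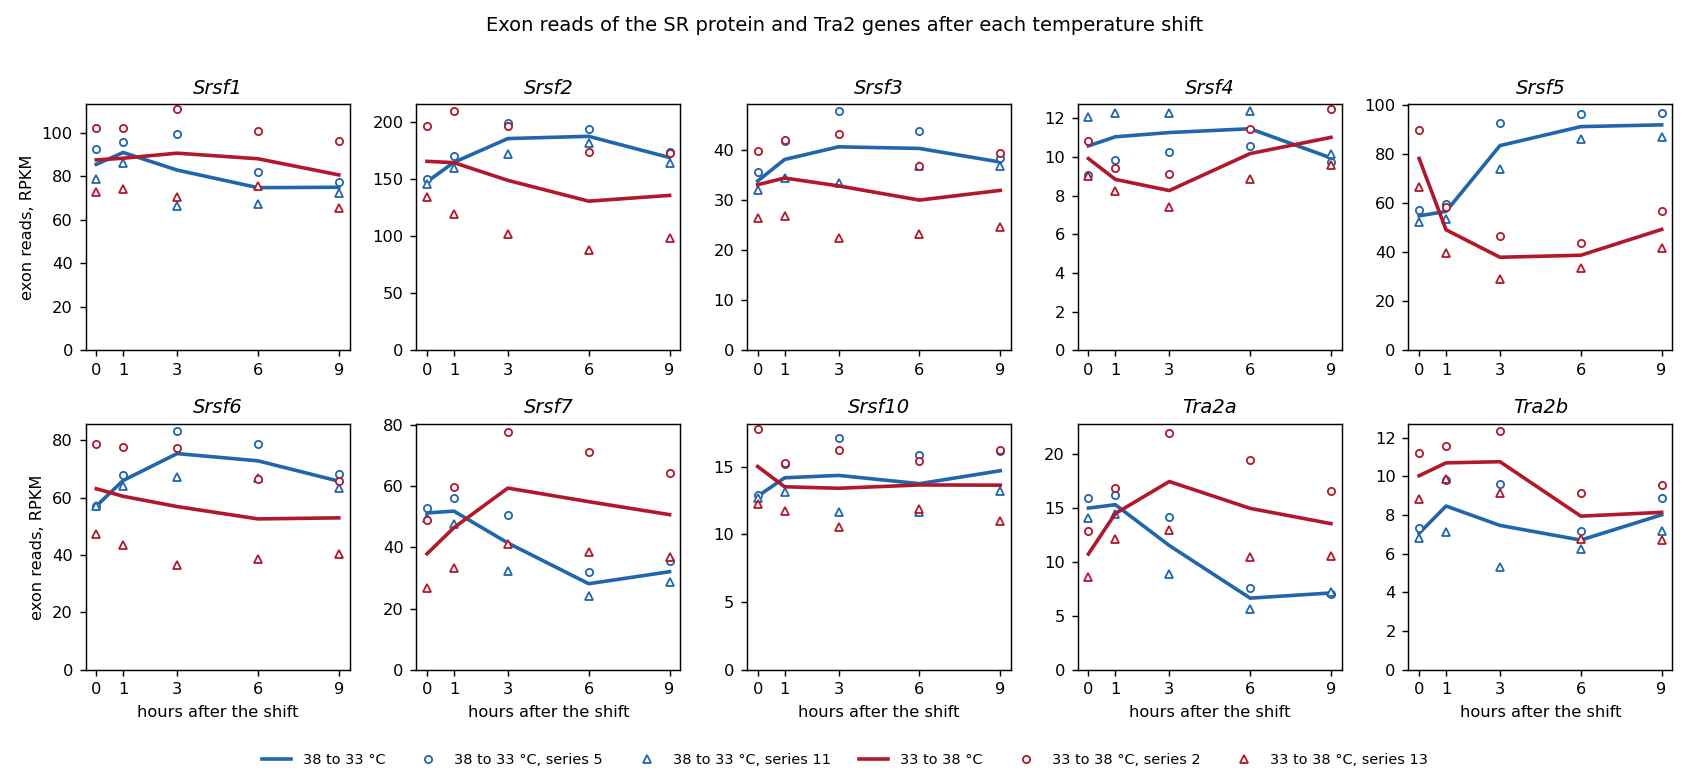
Exon reads in RPKM (vertical axis, from 0) against hours after the shift, for each of the 10 genes, with the downshift in blue and the upshift in red. Lines join the means of the 2 columns of a sample and open symbols are the columns. Srsf5 climbs from 54.8 to 91.9 RPKM in the downshift, and Srsf7 and Tra2a run the other way.

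Srsf5 (ENSMUSG00000021134, chr12:80945504-80950507, plus strand), an SR protein, had the widest upward difference of the 10. Its exon reads were at 54.8, 56.6, 83.4, 91.2 and 91.9 RPKM at 0, 1, 3, 6 and 9 h of the downshift, with the widest step between 1 and 3 h and a smaller one between 3 and 6 h. In the upshift they were at 78.2, 49.1, 37.9, 38.8 and 49.3 RPKM, low by 1 h, lowest at 3 h and partly back at 9 h. At 3, 6 and 9 h every downshift sample was above every upshift sample. The downshift minus the upshift came to 1.60 ± 0.35 (SE, adjusted p = 0.00457), from a rise of 0.86 ± 0.26 in the downshift (adjusted p = 0.0296) and a fall of -0.74 ± 0.24 in the upshift (adjusted p = 0.0374). It was 1.61 in series 2 and 5 alone and 1.56 in series 11 and 13 alone, both called. The upshift sample at 0 h carries much of the fall: without it the upshift change was -0.06 (adjusted p = 0.892) and the difference 0.92 (adjusted p = 0.0544). The fall was called in series 2 and 5 alone (-0.73, adjusted p = 0.0318) and not in series 11 and 13 alone (-0.70, adjusted p = 0.0623). It was not called with DESeq2 either (adjusted p = 0.0931), nor without the upshift sample at 6 h (-0.66, adjusted p = 0.11) or the downshift sample at 6 h (adjusted p = 0.0548). The downshift rise lost its call without the downshift sample at 0, 1, 6 or 9 h, with changes of 0.78 to 0.97 over all samples left out in turn.

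Srsf2 (ENSMUSG00000034120, chr11:116849901-116853094, minus strand), known as SC35 and a classical SR protein that stays in the nucleus, was the member with the highest exon reads. It stood at 148, 165, 186, 188 and 169 RPKM in the downshift and at 166, 164, 149, 131 and 136 RPKM in the upshift. By their means the courses crossed between 0 and 3 h, and from 3 h on the downshift samples were all higher. Series 5 and 2 were nearly level at 3 h (199 and 196 RPKM) and at 9 h (174 and 173 RPKM). Series 11 was above 13 at every time, with 172 and 102 RPKM at 3 h. The difference was 0.62 ± 0.14 (adjusted p = 0.00533), with a fall of -0.37 ± 0.10 in the upshift (adjusted p = 0.0179) and a change of 0.25 ± 0.10 in the downshift that missed the threshold (adjusted p = 0.0789). In series 11 and 13 the difference was 0.77 (adjusted p = 0.00367), and in series 2 and 5 it was 0.50 and not called (adjusted p = 0.0714). Without the downshift sample at 0 h it was 0.46 (adjusted p = 0.0652). The fall in the upshift was not called without the upshift sample at 0 h (-0.44, adjusted p = 0.0733) or at 6 h (-0.32, adjusted p = 0.0647), nor in series 2 alone (-0.23, adjusted p = 0.238). Srsf2 overlaps Mettl23 and Mfsd11 on the opposite strand, and whether strand was used in counting is not stated, so reads of these genes may be included.

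Srsf6 (ENSMUSG00000016921, chr2:162931528-162937121, plus strand), a classical SR protein as well, differed between the shifts in the same direction as Srsf2. It was at 57.0, 66.0, 75.3, 72.8 and 65.7 RPKM in the downshift, with its peak at 3 h, and at 63.1, 60.4, 56.9, 52.6 and 52.9 RPKM in the upshift. From 1 h on the mean of each downshift sample was higher than that of the upshift sample of the same time. At 1 h this order held for series 11 against 13 (64.0 and 43.3 RPKM). It was reversed for series 5 against 2 (67.9 and 77.6 RPKM). The difference was 0.54 ± 0.16 (adjusted p = 0.0181), and neither shift was called by itself (0.25, adjusted p = 0.119, and -0.29, adjusted p = 0.0656). This call is the least steady of the 5, since it was lost in each pair of series (0.60, adjusted p = 0.0638, and 0.42, adjusted p = 0.0582) and without the 0 h sample of the downshift (0.29, adjusted p = 0.214) or of the upshift (0.55, adjusted p = 0.0681).

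Srsf7 (ENSMUSG00000024097, chr17:80200080-80207307, minus strand), an SR protein with a zinc knuckle beside its RNA recognition motif, went the opposite way to these genes. Its exon reads were at 51.2, 51.8, 41.4, 28.1 and 32.0 RPKM in the downshift. In the upshift they were at 37.9, 46.4, 59.3, 54.9 and 50.7 RPKM. By their means the downshift samples were near their start at 1 h and lower from 3 h, and the upshift samples were highest at 3 h. From 3 h on the means of the courses did not overlap. The drop at 3 h of the downshift lay mostly in series 11 (49.7 RPKM at 0 h and 32.3 at 3 h). Series 5 was at 52.7 and 50.6 RPKM at these times. At 3 h series 5 of the downshift was also above series 13 of the upshift (41.0 RPKM). The difference was -1.34 ± 0.28 (adjusted p = 0.0035), with a fall of -0.88 ± 0.19 in the downshift (adjusted p = 0.00898) and a change of 0.47 ± 0.20 in the upshift that was not called (adjusted p = 0.0978). The difference and the fall were called in both pairs of series and without any 1 sample, the difference ranging from -1.63 to -1.03.

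For the remaining classical members the difference between the shifts was not called. Srsf1, long known as ASF/SF2, was at 85.6, 91.0, 82.9, 74.9 and 75.0 RPKM in the downshift and at 80.7 to 90.7 RPKM in the upshift. Its fall of -0.27 ± 0.09 in the downshift was called (adjusted p = 0.0357), but not in series 5 alone (adjusted p = 0.159) or 11 alone (adjusted p = 0.191), and not without the downshift sample at 1 h (-0.22), 6 h (-0.24) or 9 h (-0.24) or the upshift sample at 1 h (-0.27). Its difference between the shifts was -0.19 ± 0.12 (adjusted p = 0.214). Srsf3, the smallest of the SR proteins, had a peak of 40.7 RPKM at 3 h of the downshift, against 30.0 to 34.5 RPKM in the upshift, with a difference of 0.29 ± 0.14 (adjusted p = 0.106). Srsf4, known as SRp75, lay between 8.27 and 11.5 RPKM in the 10 samples, with a difference of -0.16 ± 0.21 (adjusted p = 0.535). Without the downshift sample at 0 h the difference of Srsf1 passed (-0.39, adjusted p = 0.0369), as did that of Srsf3 without the downshift sample at 9 h (0.44, adjusted p = 0.0219).

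Srsf10, a relative of the SR proteins that in vertebrate cells is dephosphorylated on heat shock and then represses splicing, had the narrowest span of mean exon reads of the 10. These means lay between 12.82 and 15.01 RPKM, 1.17-fold from lowest to highest, with a difference of 0.24 ± 0.11 (adjusted p = 0.103). The columns were less steady and parted in direction. At 3 h of the downshift series 5 had changed by 0.40 on the log2 scale since 0 h and series 11 by -0.13. The difference was 0.38 in series 2 and 5 alone (adjusted p = 0.122) and 0.05 in 11 and 13 alone (adjusted p = 0.824).

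Of the Tra2 genes, Tra2a passed the test and Tra2b did not. Tra2a (ENSMUSG00000029817, chr6:49243924-49264033, minus strand) stood at 14.96, 15.3, 11.5, 6.63 and 7.11 RPKM in the downshift, and at 10.7, 14.5, 17.4, 14.9 and 13.5 RPKM in the upshift. The samples at 6 and 9 h of the downshift were the lowest of the 10, and that at 3 h of the upshift the highest. From lowest to highest its exon reads spanned 2.63-fold, the widest span of any member. The downshift minus the upshift came to -1.66 ± 0.37 (adjusted p = 0.00522) and the fall in the downshift -1.33 ± 0.26 (adjusted p = 0.00559), while the upshift, in which the level first went up and then down, gave 0.33 ± 0.27 (adjusted p = 0.368). The difference was called in both pairs of series (-1.78 and -1.51) and lost its call without the upshift sample at 0 h (-1.16, adjusted p = 0.0612), whereas the fall in the downshift was called without any 1 sample (-1.83 to -1.15). Tra2b, its paralogue, which is known to bind GAA-rich exonic enhancers, lay between 6.71 and 8.47 RPKM in the downshift and was at 10.0, 10.7, 10.8, 7.95 and 8.15 RPKM in the upshift. Its difference was 0.37 ± 0.24 (adjusted p = 0.219), and the change of -0.38 ± 0.17 in the upshift was not called either (adjusted p = 0.109). A processed pseudogene, Tra2b-ps, is in the table as well, so some Tra2b reads may have been assigned to it.

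Taking each shift alone, the downshift had 1 of the 10 genes called up (Srsf5) and 3 called down (Srsf1, Srsf7 and Tra2a), against 16.3% and 15.9% of all genes. The upshift had 0 up and 2 down (Srsf2 and Srsf5), against 14.5% and 18.6% of all genes. At an unadjusted p under 0.05 the upward count in the upshift was 1 of 10, Srsf7, and DESeq2 called 1, also Srsf7 (adjusted p = 0.0470).

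Intron reads, which stand for RNA not yet spliced or kept with an intron, were tested in 9376 genes with at least 0.05 RPKM of intron reads, on a scale of their own. Of the 10 genes 2 were called, both upward, Srsf10 and Srsf5, against 4.75% of genes called upward and 3.04% downward. Srsf10 (ENSMUSG00000028676, chr4:135855747-135869908, plus strand) was at 27.9, 35.6, 44.4, 46.4 and 38.8 RPKM of intron reads in the downshift and at 42.6, 32.4, 30.3, 27.7 and 31.8 RPKM in the upshift. These means spanned 1.68-fold, beside 1.17-fold for the means of its exon reads. The courses mirrored each other, with the turning points at 6 h in both. The difference was 1.04 ± 0.27 (adjusted p = 0.0462), and it was not called in series 2 and 5 alone (1.202, adjusted p = 0.0521) or 11 and 13 alone (0.82, adjusted p = 0.0599), and leaving out the downshift sample at 0, 1 or 6 h or the upshift sample at 0, 3 or 6 h ended the call as well (0.70 to 1.06).

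Srsf5 had 16.9, 20.1, 23.6, 26.3 and 23.9 RPKM of intron reads in the downshift and 23.9, 16.9, 15.6, 13.9 and 16.1 RPKM in the upshift. The downshift means were thus the higher ones from 1 h on, as on exons. At 1 h the intron order was reversed for series 5 against 2 (18.4 and 19.9 RPKM). The difference was 1.21 ± 0.27 (adjusted p = 0.0254). It was not called without the 0 h or 6 h sample of either shift, the value being smallest, 0.76 (adjusted p = 0.155), without the upshift sample at 0 h. With the time point as a replicate block neither intron call held (adjusted p = 0.157 for Srsf5 and 0.197 for Srsf10), nor on linear hours (0.153 and 0.247). Scaling the intron reads by the exon totals moved the median difference of all genes from 0.07 to -0.27 and the calls from 445 up and 285 down to 151 up and 1457 down. On that scale Srsf5 was still called (0.88, adjusted p = 0.0468) and Srsf10 was not (0.69, adjusted p = 0.101), both above the median of all genes. Of the other 8 genes, Srsf7 had 0.50 ± 0.18 (adjusted p = 0.116) and Srsf4 0.42 ± 0.12 (adjusted p = 0.0607), while Srsf2 had -0.50 ± 0.33 (adjusted p = 0.351) and Tra2a -0.16 ± 0.27 (adjusted p = 0.752).

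**Figure D2:**
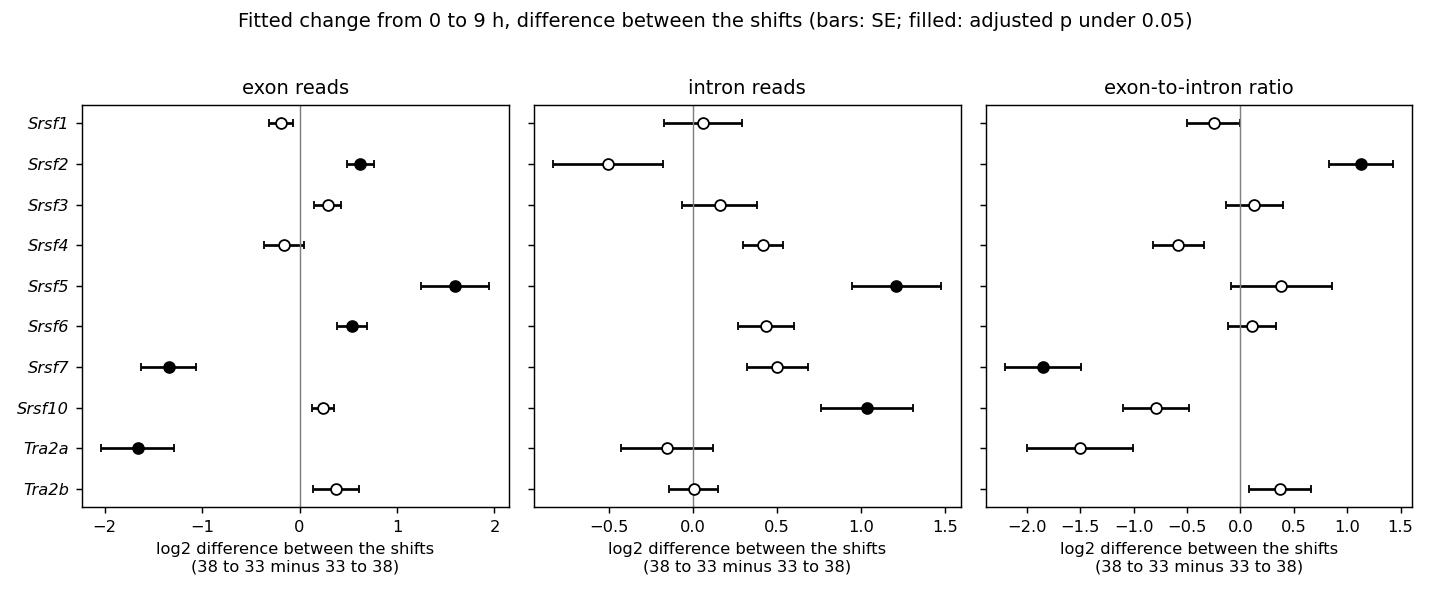
Fitted change from 0 to 9 h of the downshift minus that of the upshift (horizontal axes, log2 scale) for exon reads, intron reads and the exon-to-intron ratio, 1 row per gene. Bars are standard errors and filled points have an adjusted p under 0.05. Srsf5 lies to the right for exons (1.60) and introns (1.21), while Srsf7 lies to the left for exons (-1.34) and the ratio (-1.85).

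The exon-to-intron ratio sets the exon RPKM of a gene against its intron RPKM, and was tested as the difference of their slopes. Of the 10 genes Srsf2 was called upward and Srsf7 downward, against 3.82% of genes called upward and 4.10% downward. For Srsf7 the ratio was 1.25, 1.02, 0.819, 0.580 and 0.680 in the downshift and 0.701, 1.05, 1.28, 1.36 and 1.22 in the upshift, so the courses exchanged places, the crossing falling near 1 h. In both courses the turning point was at 6 h, and the 2 columns of a sample lay close together, as at 6 h of the downshift with 0.594 and 0.563. Its intron reads went from 41.0 to 47.1 RPKM in the downshift and from 54.1 to 41.5 RPKM in the upshift, against the direction of its exon reads, and the intron difference was not called (adjusted p = 0.116). The difference in the ratio was -1.85 ± 0.36 (adjusted p = 0.00531), the widest of the 10 genes, and was not called without the upshift sample at 0 h (-1.37, adjusted p = 0.0887).

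For Srsf2 the ratio was 12.2, 14.4, 15.4, 21.5 and 16.7 in the downshift and 18.3, 14.4, 12.8, 10.9 and 12.97 in the upshift, again an exchange of places. The difference was 1.1275 ± 0.30 (adjusted p = 0.0306). It rests on 27 to 71 intron reads per column, from introns of 236 bases in all, and the 2 columns at 6 h of the downshift gave 29.9 and 16.6. It was not called without the downshift sample at 0, 1 or 6 h or the upshift sample at 0 or 6 h (0.92 to 1.14), nor in either pair of series (1.27, adjusted p = 0.202, and 0.97, adjusted p = 0.142). A replicate block of time points ended the call too (adjusted p = 0.10), as did linear hours (adjusted p = 0.119).

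Tra2a had ratios of 0.979, 1.1302, 0.850, 0.551 and 0.504 in the downshift and 0.700, 1.41, 1.44, 1.07 and 1.02 in the upshift. The ratio was 2.02-fold higher after 1 h of the upshift than at its start, the widest first-hour step in the ratio of the 10 genes. Its difference of -1.504 ± 0.50 missed the threshold (adjusted p = 0.0697), and passed it without the upshift sample at 1 h (-1.73, adjusted p = 0.0368) or the downshift sample at 0 h (-2.14, adjusted p = 0.0465). Srsf10 had ratios of 0.459, 0.399, 0.323, 0.296 and 0.379 in the downshift and 0.352, 0.417, 0.443, 0.493 and 0.429 in the upshift. These are the lowest ratios of the 10 genes, the intron reads per kilobase exceeding the exon reads in every sample, and the difference was -0.79 ± 0.31 (adjusted p = 0.125). For Srsf4 the difference in the ratio was -0.58 ± 0.24 (adjusted p = 0.145). The Tra2a gene overlaps Gm43980 on the opposite strand.

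**Figure D3:**
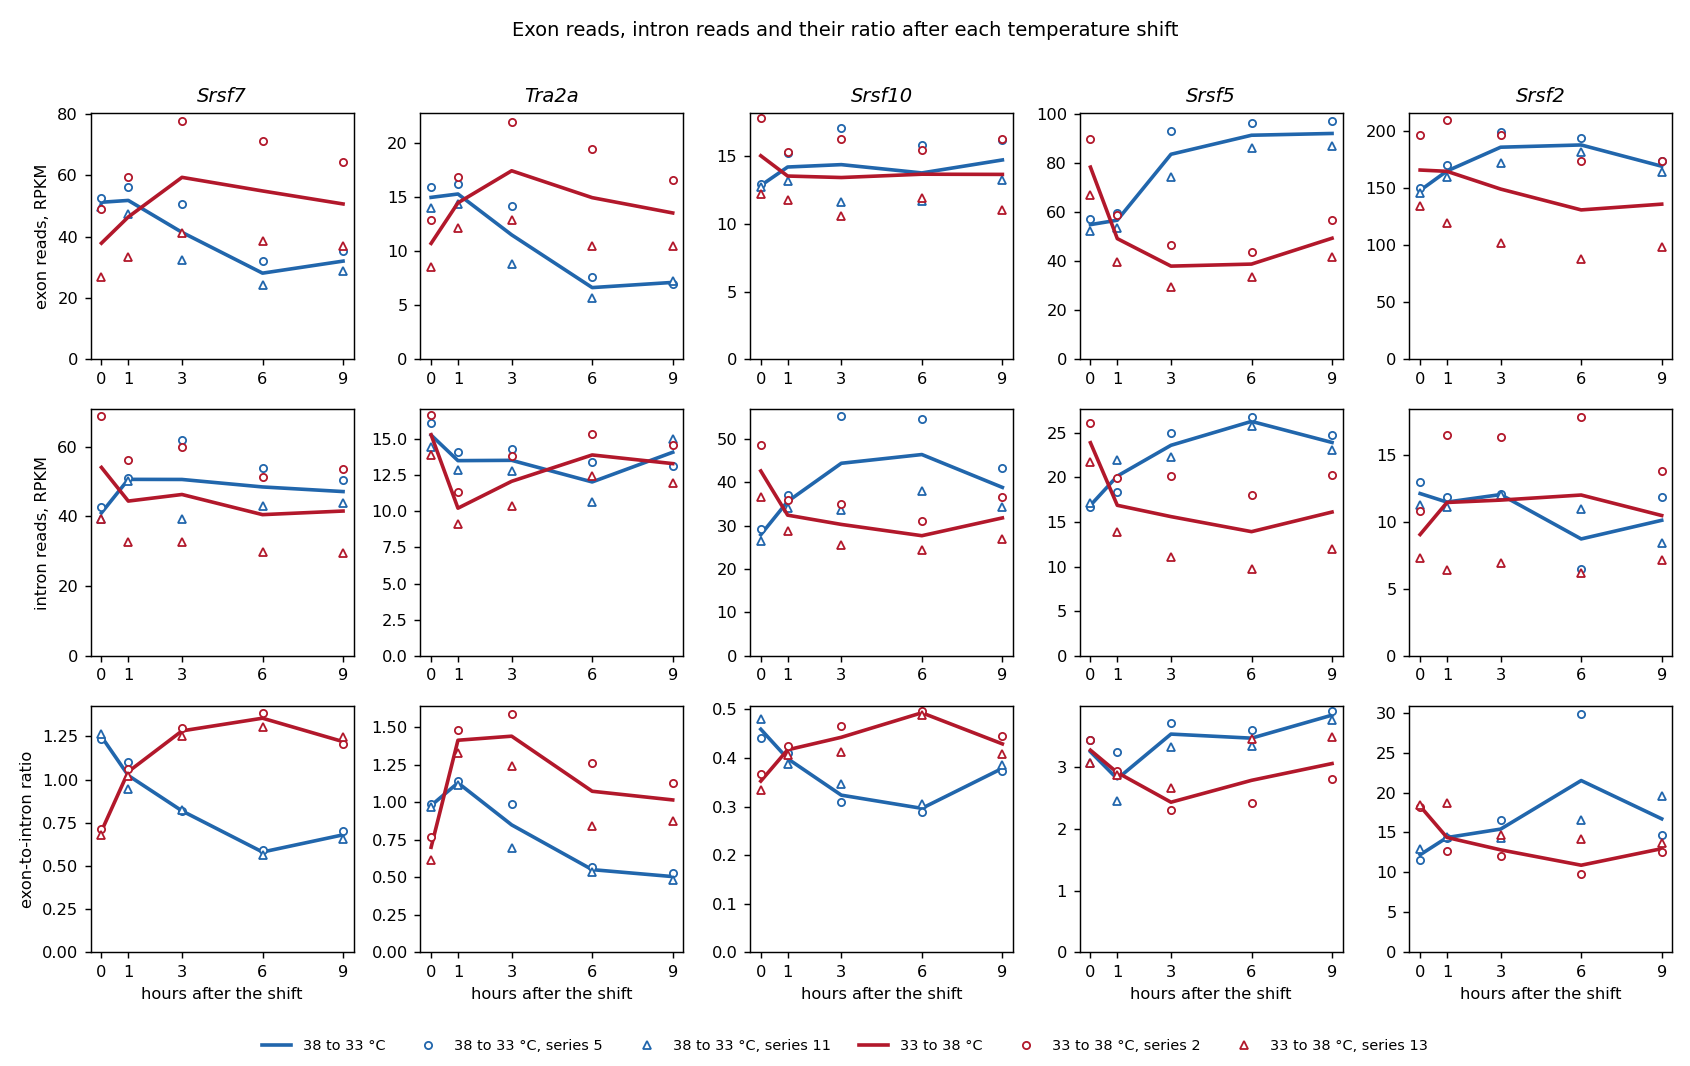
Exon reads and intron reads in RPKM and the exon-to-intron ratio (rows, vertical axes from 0) against hours after the shift for 5 of the genes, downshift in blue and upshift in red, lines joining samples and open symbols showing the 2 columns of each. The ratio of Srsf7 goes from 1.25 to 0.580 by 6 h of the downshift and from 0.701 to 1.36 by 6 h of the upshift.

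The 6 samples that had spent at least 6 h at 1 temperature were compared directly, 3 at 33 °C and 3 at 38 °C, in a fit with a term for the course. These are the 0 h sample of one shift and the 6 and 9 h samples of the other, all of which the trends above also use. On exon reads Srsf5, Srsf2 and Srsf6 were higher at 33 °C and Srsf7 and Tra2a lower, against 17.7% of all genes higher and 16.6% lower. Here and below the means, SD and folds are of the samples, and the adjusted p-values are those of the fit. Srsf5 was at 87.1 ± 7.71 RPKM at 33 °C and 47.6 ± 8.15 RPKM at 38 °C (SD, n = 3 each), 1.83-fold apart. The fit gave it 0.78 on the log2 scale (adjusted p = 0.00262 in edgeR). Srsf7 was at 32.7 ± 4.92 against 52.3 ± 2.30 RPKM, 1.60-fold lower in the cold (fit -0.62, adjusted p = 0.0040 in edgeR). Tra2a was at 8.15 ± 2.23 against 14.5 ± 0.824 RPKM, 1.78-fold lower in the cold (fit -0.77, adjusted p = 0.00949 in edgeR). For these genes the sample means at 33 °C and at 38 °C did not overlap, nor did the columns within each pair of series. Columns of different series did overlap for Srsf7 and Tra2a. Srsf7 reached 49.0 RPKM at 33 °C in series 2 and was at 36.9 RPKM at 38 °C in series 13. Tra2a reached 12.9 RPKM at 33 °C in series 2 and was at 10.5 RPKM at 38 °C in series 13.

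On intron reads 4 of the 10 genes were higher at 33 °C (Srsf4, Srsf5, Srsf7 and Srsf10) and 0 lower. Of all 9376 genes tested, 1307 were called higher and 1032 lower, 24.9% either way. At an unadjusted p under 0.05 the number of the 10 genes that were lower was 0 as well. Srsf4 overlaps A930004J17Rik on the same strand and Gm12992 on the opposite strand, so reads of these genes may be included. Srsf10 had 42.6 ± 3.79 RPKM of intron reads at 33 °C and 29.1 ± 2.31 RPKM at 38 °C (SD, n = 3 each; adjusted p = 0.00684 in edgeR), and Srsf7 49.9 ± 3.68 against 41.0 ± 0.517 RPKM (adjusted p = 0.0113 in edgeR). In the ratio Srsf2 was higher at 33 °C and Srsf7, Srsf10 and Tra2a lower, against 4.81% of genes higher and 5.00% lower. The ratio of Srsf7 was 0.654 ± 0.0645 at 33 °C and 1.27 ± 0.0715 at 38 °C, 1.95-fold apart (adjusted p = 0.00196 in edgeR), that of Tra2a 0.585 ± 0.102 against 1.02 ± 0.0479 (adjusted p = 0.0485 in edgeR), and that of Srsf10 0.342 ± 0.0421 against 0.460 ± 0.0321 (adjusted p = 0.0453 in edgeR). The ratios of Srsf2 were 18.8 ± 2.44 and 12.02 ± 1.05 (adjusted p = 0.0182 in edgeR). In these 4 genes the ratios at the 2 temperatures did not overlap.

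**Figure D4:**
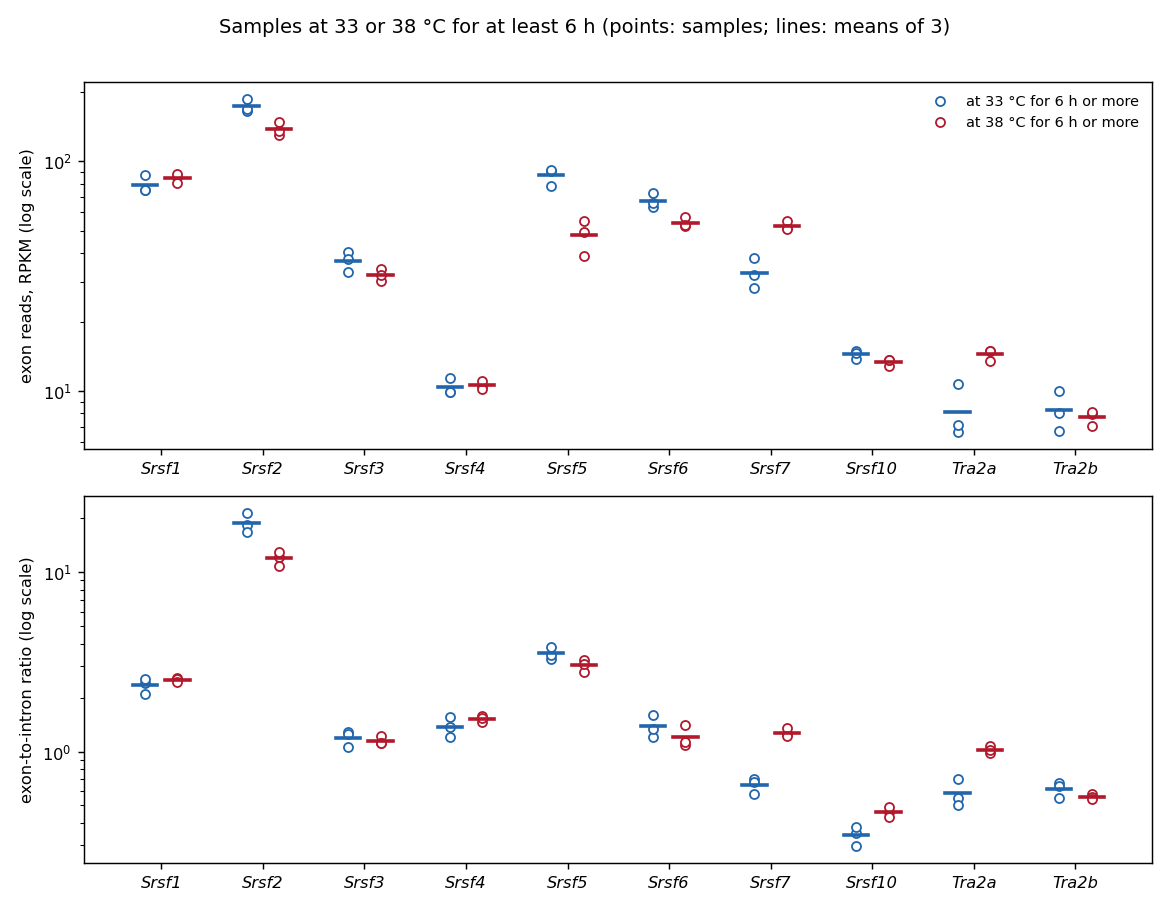
Exon reads in RPKM (upper panel) and the exon-to-intron ratio (lower panel), both on log axes, in the 3 samples at 33 °C (blue) and the 3 at 38 °C (red) for at least 6 h, with horizontal lines at the means. Srsf5 has all blue points above the red ones for exons, and Srsf7, Srsf10 and Tra2a have all blue points below the red ones for the ratio.

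The 9 h samples can be set beside the 0 h samples of the other course, which had 16 h at the same temperature. At 38 °C Srsf7 was at 50.7 RPKM after 9 h and at 51.2 RPKM after 16 h, and Srsf5 at 49.3 and 54.8 RPKM. At 33 °C Srsf7 was at 32.0 and 37.9 RPKM, Srsf5 at 91.9 and 78.2 RPKM, and Tra2a at 7.11 and 10.7 RPKM. Tra2a after 9 h in the cold was thus 0.59 lower on the log2 scale than after 16 h, with 1 sample each and from different series, and no test.

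The first hour and the starting state rest on 1 sample against 1, so members were only counted past 1.5-fold. In the first hour of the downshift 0 genes passed on exons and 0 on introns, against 0.511% of all genes higher and 0.600% lower on exons and 7.17% either way on introns. In the first hour of the upshift Srsf5 was 1.59-fold lower on exons, the only member past the limit, and 0 passed on introns, where Tra2a came closest at 1.497-fold lower. Of all genes 2.09% passed on exons and 8.33% on introns. Srsf5 was lower by 0.61 on the log2 scale in series 2 and by 0.75 in series 13. Between the 0 h samples at 33 and 38 °C, 0 members passed on exons, where Srsf5 was 1.43-fold and Tra2b 1.42-fold higher at 33 °C, and on introns Srsf10 did, 1.53-fold higher at 33 °C. Of all genes 20.0% passed on exons and 13.7% on introns. In series 2 and 5 alone 2 members passed on exons, both higher at 33 °C, and in 11 and 13 alone 2 others, both lower. On introns 4 members passed in series 2 and 5 alone, all higher at 33 °C. In 11 and 13 alone 1 passed, Srsf2, lower at 33 °C (7.31 against 11.2 RPKM). There Srsf10 was at 36.7 RPKM at 33 °C and 26.5 RPKM at 38 °C, under the limit.

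Among 33 other SR and SR-related splicing proteins, 30 were tested on exon reads, of which 6 were called up and 8 down in the difference between the shifts, with a median of -0.10 beside 0.04 over all genes. The shares of all genes called, 25.2% up and 21.7% down, apply to this list and to the lists that follow, and the counts lie near or below them. Bclaf1, an arginine- and serine-rich protein tied to mRNA processing, had 2.06 (adjusted p = 0.000204), and its relative Thrap3 had 1.111 (adjusted p = 0.00154). Luc7l, related to a yeast U1 snRNP protein, had -0.95 (adjusted p = 0.00283), and Srrm2, a scaffold of nuclear speckles, had -0.84 (adjusted p = 0.0194). Of 12 genes for SR protein kinases, a phosphatase and the nuclear importer of SR proteins, 10 were tested and 2 called, both up, with a median of 0.10. These were Dyrk1a, a kinase of splicing factors, at 0.79 (adjusted p = 0.00385), and the SR protein kinase Srpk2 at 0.51 (adjusted p = 0.00521). All 14 factors of nonsense-mediated decay were tested, of which 2 were up and 2 down, with a median of 0.05. Eif4a3, the helicase of the exon junction complex, had 0.84 (adjusted p = 0.000366) and Smg5 0.50 (adjusted p = 0.0156). Upf1, the central helicase of the pathway, had -0.50 (adjusted p = 0.00747) and Smg8 -0.41 (adjusted p = 0.0454).

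The exon level of Tra2a, the member with the widest exon difference, was most like that of Hmgxb4 (r = 0.966), Ralgapa1 (r = 0.965) and Hspa8 (r = 0.964), by Pearson's r of log2 levels across 10 samples among 10163 genes outside the 10. Within the 10 genes it was most like Srsf7 (r = 0.977). The ratio of Srsf7, the member with the widest ratio difference, was most like those of Bfar (r = 0.978), Gfer (r = 0.977) and Dock5 (r = 0.966) among 9366 genes. These values describe 10 samples that share 2 courses and carry no test, and each named gene is the nearest of a large number.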

How the data were processed

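Reads of total RNA libraries from 10 samples were processed with STAR and bedtools on mm10. This is per the submitters' processing notes, without versions. The libraries were paired-end and strand-specific, per the labels' protocols. The deposited tables hold estimated counts of exon and intron reads, although their names speak of RPKM: 22.9% of the exon values above 0 are whole within 1e-06 and column sums differ. Of the 44 columns 0 lacked a sample. One sample with a mistyped title was placed by its description.

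Values were rounded and the 2 columns of a sample summed, with an offset per gene that allows for unequal shares of the series. Series 10, with 1 and 3 h of the downshift, entered an alternative only. The edgeR 4.0.16 quasi-likelihood test (R 4.3.3, TMM scaling) gave each course its own intercept and slope, on log2(h + 1), over all 10 samples. Changes are slopes times the log2 of 10, with standard errors derived from the F statistic, and p-values were adjusted over all tested genes after Benjamini and Hochberg. The ratio is the interaction of read type and slope, each read type on its own scale. RPKM used GENCODE M21 lengths (36308 genes, 95.3%). Comparisons of 1 sample with 1 used pseudocounts of 0.1 RPKM for exons and 0.01 RPKM for introns. DESeq2 1.42.0 and limma 3.58.1 on log2 RPKM served as alternatives.

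The 10 genes, the lists, the markers and the rules were chosen with earlier results of these data known. All 10 genes are named, with up to 4 called genes of each list with the widest difference, and the 3 genes most like the members with the widest exon and ratio differences.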

Additional observations from a re-analysis of the deposited data

How the results depend on the processing

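The calls of Srsf7 and Tra2a on exon reads in the downshift, and of Srsf7 in the difference between the shifts, held under all alternatives run, and so did the direction of the other called values. Where a value below changed, the cause was not tested. Members called on the exon difference were 5, and 2 to 6 with 1 sample left out, and 3 in series 2 and 5 alone. In the downshift they were 4 (2 to 4 with 1 sample left out) of 3276 genes (1590 to 3564, and 2050 in series 11 and 13 alone). In the upshift they were 2 (0 to 3) of 3363 genes (1873 to 3522, and 2204 in series 11 and 13 alone), with 1 without the offset for series, 1 in series 2 and 5, 1 in series 11 and 13, and 0 on linear hours. Intron calls were 2 members (0 to 2) of 730 genes (235 to 1113). They were 1 member in each pair of series alone and 1 on the exon scale, 0 on linear hours, and 4 between 33 and 38 °C. Genes called on introns were 1277 with no RPKM filter, 338 in series 11 and 13, 191 on linear hours, 2339 between 33 and 38 °C and 1608 on the exon scale. Ratio calls were 2 members (1 to 3) of 742 genes (322 to 760). They were 1 member in each pair of series and on linear hours, and 4 between 33 and 38 °C. Without the upshift sample at 0 h Srsf7 was not called and 1 other member was, downward. Genes called on the ratio were 255 in series 2 and 5, 386 in series 11 and 13, 403 on linear hours and 1659 on the exon scale.

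With the time point as a replicate block, exon calls stayed at 5 members, while intron calls were 0 members and 23 genes and ratio calls 1 member (Srsf7) and 178 genes. The time points are shared by both courses but name no common culture.

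On linear hours the exon calls of Srsf5 in both single shifts (adjusted p = 0.103 and 0.238), of Srsf2 in the upshift (0.0543) and of Srsf6 in the difference (0.10) were lost. Without the offset for series those of Srsf2 (0.0621) and Srsf5 (0.0524) in the upshift were lost.

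In the comparisons of 1 sample with 1, members past the limit between the 0 h samples were 2 on exons in each pair of series. On introns members past the limit were 4 in series 2 and 5, all higher at 33 °C, 1 in series 11 and 13, lower, and 0 at 2-fold. In the first hour of the upshift they were 0 on exons at 2-fold, and on introns 1 in series 2 and 5, 2 in series 11 and 13 and 1 with RLE scaling.

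Signs turned only for values that were not called. In the exon downshift, Srsf4 (-0.0038, with -0.12 to 0.13 when 1 sample was left out) was 0.011 with RLE scaling and 0.13 in series 2 and 5. Tra2b (-0.23 to 0.10) was 0.0070 with RLE scaling, 0.0445 without the offset and 0.0293 in series 2 and 5. Srsf10 was -0.0405 in series 11 and 13, Srsf3 ranged from -0.0336 to 0.31 and Srsf6 from -0.0021 to 0.45. In the exon upshift, leaving out 1 sample gave -0.16 to 0.0184 for Srsf1, -0.0136 to 0.50 for Srsf4, -0.16 to 0.0288 for Srsf10 and -0.17 to 0.63 for Tra2a, and in the exon difference -0.50 to 0.0099 for Srsf4. In the intron difference, Srsf1 (-0.14 to 0.18) was -0.0048 without the offset and -0.26 on the exon scale, Srsf3 (-0.26 to 0.30) was -0.0004 on linear hours and -0.17 on the exon scale, and Tra2b (-0.23 to 0.0772) was -0.0033 with RLE scaling, -0.25 in series 2 and 5, -0.0480 on linear hours and -0.34 on the exon scale. In the ratio difference, Srsf1 was 0.0671 on the exon scale, Srsf3 was -0.0149 between 33 and 38 °C, and Srsf6 (-0.15 to 0.34) was -0.0556 on linear hours. Depth limits Srsf2 most, with 27 to 71 intron reads per column.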
